A study of Homo sapiens with 14 samples.

Results

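USP genes encode the ubiquitin-specific proteases, and the splicing of their transcripts was compared between SF3B1 WT and SF3B1 MT cells. The events were the rows of the deposited splice table whose gene symbol is USP followed by a digit. The table listed 707 such events in 47 symbols, and 661 of them, in 46 symbols, had a mean of at least 10 reads and formed the set described here. All 661 had an inclusion level in all 6 libraries. The level was identical in every library for 99 of them, at 1 in 98 and at 0 in 1, which left 562 events in 45 symbols for testing, out of 83581 tested in the whole table. The rule works on symbols and so it also took in USP2-AS1, an antisense RNA with 1 tested event, and USP6NL, a GTPase-activating protein gene with 2 tested events. USP32P3, a pseudogene, was listed with too few reads, and the only USP35 event with enough reads was constant.

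HEK293T is a human embryonic kidney cell line. The WT libraries carried SF3B1 K700K, the reference residue of the splicing factor, and the MT libraries carried SF3B1 K700E, with 3 libraries of total RNA for each genotype and no other treatment in the labels. Whether a line is 1 clone is not given in the sources used here. The table holds inclusion levels and no gene expression, so neither the K700E allele nor markers of the cell type could be checked in it, and read totals per library are unknown. For each event the table lists 3 WT values and 6 MT values, but 3 MT columns, and it is not settled that these columns are the 3 MT samples of the study. MT 1, MT 2 and MT 3 name the columns by their order. The labels do not say that libraries came from separate cultures, so the p-values measure only the spread among these libraries.

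Ubiquitin-specific proteases are the largest family of human deubiquitinases. They are cysteine proteases that take ubiquitin off proteins or trim ubiquitin chains, and family members act at chromatin, in DNA repair, at the proteasome, on endosomes and on the spliceosome itself. SF3B1 is a subunit of the U2 snRNP that contacts the intron branch point, where the 3′ splice site is chosen. The K700E change is known for its use of cryptic AG acceptors a short way upstream of the usual one. An inclusion level is the share of an event's reads, corrected for length, that belongs to the form with the exon, the longer exon or the retained intron, and it runs from 0 to 1. The event types were cassette exons (SE), mutually exclusive exons (MXE), alternative 3′ splice sites (A3SS), alternative 5′ splice sites (A5SS) and retained introns (RI).

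Neither of the leading components of the transformed levels over all tested events separated the genotypes completely. On the first, which took 24.5% of the variance, WT 1 (0.389), WT 3 (0.183) and MT 1 (0.568) lay on 1 side and WT 2 (-0.185), MT 2 (-0.443) and MT 3 (-0.512) on the other. On the second, which took 20.5%, WT 1 (0.251), WT 2 (0.042), WT 3 (0.548) and MT 3 (0.236) were on the positive side and MT 1 (-0.54) and MT 2 (-0.536) on the negative side. For USP events with a difference above 0.1, the smallest value with a library left out is given where it is much smaller.

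Because SF3B1 acts at the 3′ splice site, the alternative acceptors of USP genes are shown as sequence. A3SS events numbered 20 in 12 USP genes. In 6 of them the AGs lay 3 bp apart, in 2 they lay 4 to 9 bp apart, in 4 they lay 10 to 30 bp apart, and in 8 they lay further apart. The tandem acceptors are printed first, each as 30 bases of hg38, read in the sense of the transcript, that end inside the exon. Both AGs are in capitals, and the longer form starts after the upstream AG. USP48 is shown at both of its tandem sites.
USP16, chr21:29037254-29037283, + strand: taaatcttttctttttttaaAGcAGagaaa
USP19, chr3:49117354-49117383, - strand: ctgactgctgtatctttggcAGaAGaaacc
USP28, chr11:113830939-113830968, - strand: aattgtctccttttcctaaaAGcAGcagtc
USP48, chr1:21721159-21721188, - strand: taacattctctctgttccacAGcAGcgatg
USP48, chr1:21729825-21729854, - strand: ccttttgatttctctatctcAGcAGaacct
USP19, AGs 6 bp apart, chr3:49115934-49115963, - strand: ctcattccccctttttaAGgtgcAGtgggt
USP33, AGs 5 bp apart, chr1:77740930-77740959, - strand: tcctatataattatttatAGaatAGatgtt
USP10, AGs 13 bp apart, chr16:84733423-84733452, + strand: attttttttcAGtatatttttggAGatttt

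The other pairs with a spacing of 10 to 30 bp need a window for each AG, and they are shown because cryptic acceptors of SF3B1 mutants are known to lie at such distances. Capitals again mark the AG.
USP39 upstream, chr2:85623601-85623630, + strand: tctagtatctgcccttctattacAGctttt
USP39 downstream, chr2:85623621-85623650, + strand: tacagcttttcacccttccctacAGgccgg
USP36 upstream, chr17:78797898-78797927, - strand: ttcgggtctcgtttctctctgtcAGgacta
USP36 downstream, chr17:78797875-78797904, - strand: aggactaccgtggtttgttctgcAGcctcc
USP33 upstream, chr1:77721921-77721950, - strand: tttttttctatcaatgatgtttcAGgtttg
USP33 downstream, chr1:77721897-77721926, - strand: ggtttgttgtctcatgtgtccctAGctggt
In the 20 bases before the AG, USP39 had 14 pyrimidines at the upstream and 16 at the downstream acceptor, USP36 had 15 and 13, and USP33 had 14 and 15.

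None of the 20 A3SS events of USP genes was called. A call required an adjusted p under 0.05 (limma with Benjamini-Hochberg adjustment over all 83581 events) and a difference in inclusion level above 0.1. Of all tested events 26 (0.0311%) were called in this way, and 12 of these calls were among the 5351 A3SS events of the whole table. None of the 20 reached a difference of 0.1, against 8.71% of all A3SS events. The median was 107 reads for the 20 and 65.4 for all A3SS events, and whether this depth bears on the share was not tested. Levels of 0.1 to 0.9, where both acceptors were in use, were found in 10 of the 20.

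USP39, an inactive family member that is part of the U4/U6.U5 tri-snRNP, used its upstream acceptor at levels of 0.039, 0.092 and 0.073 in WT against 0.088, 0.052 and 0.063 in MT. The difference was 0.000 with a 95% interval from -0.042 to 0.042 at a mean of 210 reads, so both genotypes used the downstream acceptor in most transcripts. Intervals here and below come from the limma fit to the untransformed levels and are not adjusted for the number of events. The p-values come from a separate limma fit to the transformed levels with its own variance estimates, so an interval and a p can disagree. USP33, a USP20 paralog that acts on membrane receptors, had levels of 0.729, 0.706 and 0.658 in WT against 0.789, 0.804 and 0.583 in MT for its sites 24 bp apart, a difference of 0.028 (-0.136 to 0.191). USP36, a nucleolar deubiquitinase, had 0.653, 0.604 and 0.548 in WT and 0.566, 0.661 and 0.430 in MT, a difference of -0.049 (-0.212 to 0.113) in an exon that is not coding. In both genes the MT values spanned the WT values. The USP10 pair lay near 1 in every library, with a difference of 0.006 (-0.015 to 0.027).

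The tandem acceptors of USP16, USP19 and USP48 had the largest differences among the close pairs with at least 20 reads, and in all 3 the MT mean was lower, so that less of the form with the extra codon was counted. USP16, which removes ubiquitin from histone H2A, had levels of 0.662, 0.658 and 0.565 in WT against 0.534, 0.562 and 0.577 in MT, a difference of -0.071 (-0.146 to 0.005) at 135 reads. The groups overlapped through WT 3. USP48, which acts on histone H2A, had 0.870, 0.816 and 0.856 in WT and 0.720, 0.801 and 0.810 in MT at the acceptors at chr1:21721159-21721188, a difference of -0.070 (-0.144 to 0.003) at 100 reads. USP19, which is anchored in the endoplasmic reticulum, had 0.894, 0.907 and 0.863 in WT and 0.809, 0.805 and 0.837 in MT, a difference of -0.071 (-0.114 to -0.028) at 49.1 reads. In USP48 and USP19 every MT library lay below every WT library, while no USP A3SS event had MT wholly above. Of all A3SS events, 4.52% had MT wholly below and 4.77% wholly above. Without MT 1 the USP48 difference was -0.042. By limma the Benjamini-Hochberg adjusted p was 0.856 for each of the 3 pairs. At the other USP48 site the MT mean was lower by the fuller count of 117 reads, with a difference of -0.037 (-0.143 to 0.068), and higher by an event of 10.8 reads that joins the same acceptors to another donor, with 0.082 (-0.115 to 0.279). USP28, a deubiquitinase of MYC, had a difference of -0.005 (-0.111 to 0.100), and the USP19 pair 6 bp apart had 0.065 (-0.032 to 0.162).

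USP34, a very large deubiquitinase with a role in Wnt signalling, had the lowest unadjusted p of the A3SS events, at an exon listed with 3 acceptors. The middle against the most downstream acceptor, 60 bp apart, had levels of 1.000, 0.933 and 1.000 in WT against 0.888, 0.941 and 0.843 in MT, a difference of -0.087 (-0.170 to -0.004) at 43.3 reads, with a limma p of 0.0152 and a Benjamini-Hochberg adjusted p of 0.856. The most upstream against the most downstream acceptor, 476 bp apart, had 1.000, 0.966 and 1.000 in WT and 0.957, 0.975 and 0.938 in MT, a difference of -0.032 (-0.068 to 0.004). Both comparisons share the downstream acceptor and overlapped between the genotypes through WT 2. The most upstream against the middle acceptor stood at 1.000 in every library but MT 3 (0.987). The levels of the 3 comparisons do not combine to shares of the 3 acceptors, so reads of a form may be counted in several events. The difference of -0.087 is therefore not a plain shift between acceptors.

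**Figure D1:**
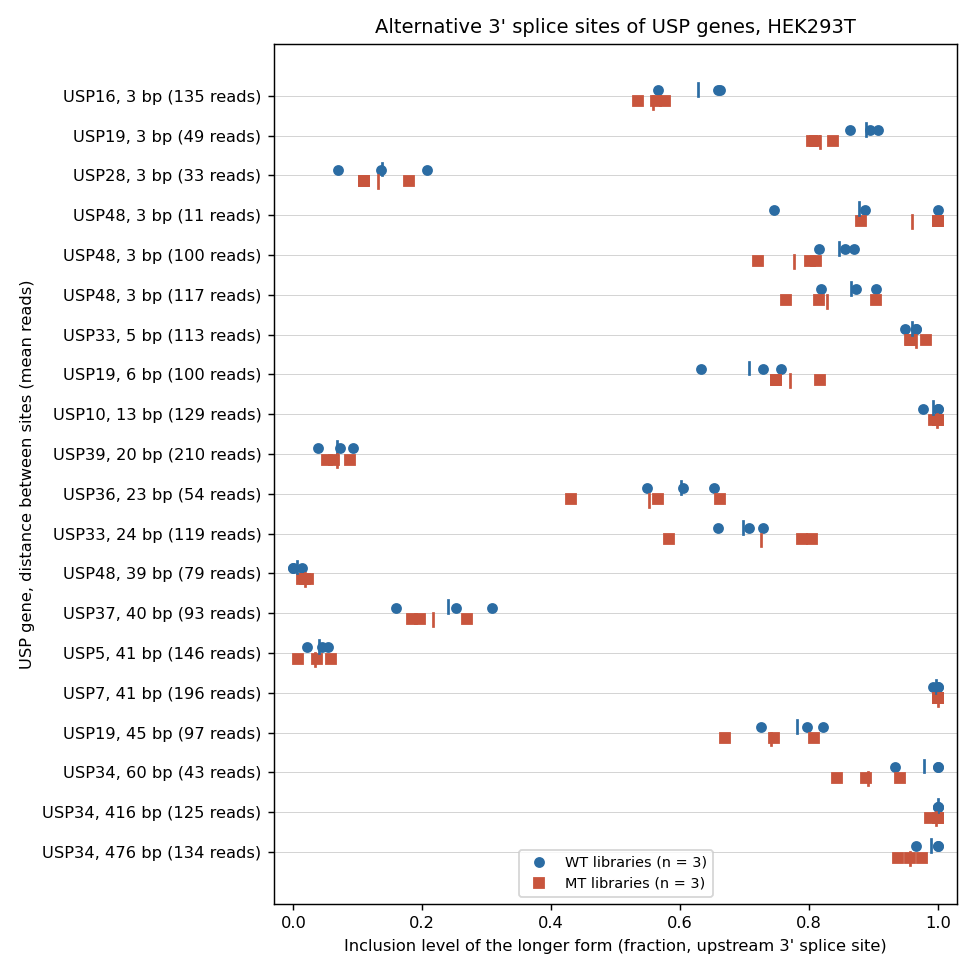
Inclusion level of the longer form (x axis, fraction) of the 20 tested A3SS events of USP genes, ordered by the distance between the acceptors in bp. Circles are the 3 WT libraries, squares the 3 MT libraries, vertical ticks the group means, and libraries with equal values overlie each other. The groups separate at USP19 (3 bp, 49 reads) and USP48 (3 bp, 100 reads), both with MT below, which is 10% of the 20 events.

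Over all event types, 0 of the 562 USP events were called by limma, and the smallest Benjamini-Hochberg adjusted p was 0.76. At an unadjusted limma p under 0.05 there were 22 USP events, or 3.91%, against 4.47% of all tested events. A difference above 0.1 in either direction was seen in 14 USP events, 2.49%, against 5.8% of all. The MT mean was higher in 260, lower in 298 and equal in 4, and the median difference was -0.0013 for USP events and -0.002 for all events. For 385 USP events, 68.5%, the 95% interval lay within 0.1 of no difference on both sides, and over all events this share was 62.3%. These intervals are bounds per event. The median half-width was 0.04, and the remaining USP events had intervals that reach beyond 0.1. Of the 144 USP events of level 0.1 to 0.9, only 20 (13.9%) had an interval within 0.1, against 13.6% of all events of that level. The median half-width of these 144 was 0.133.

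**Figure D2:**
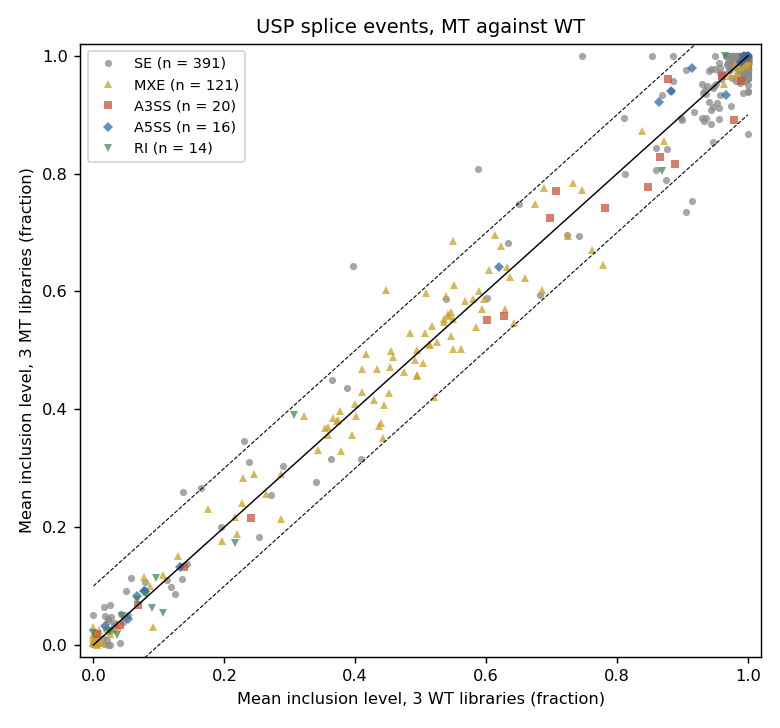
Mean inclusion level in the 3 MT libraries (y axis) against that in the 3 WT libraries (x axis), both as fractions, for the 562 tested USP events by event type. The solid line marks equality and the dashed lines a difference of 0.1, and 14 events lie outside the dashed lines.

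The 14 USP events with a difference above 0.1 were thinly covered, with 10 to 50.4 mean reads and a median of 23.1, against a median of 105 for all USP events. Of the 297 USP events with at least 100 reads none differed by more than 0.1, against 0.856% of all events with that many reads. From 50 to 100 reads there was 1 of 161 USP events (0.621%), against 3.35% of all events. From 20 to 50 reads there were 8 of 86 (9.3%) against 9.42%, and from 10 to 20 reads 5 of 18 (27.8%) against 24.4%. The MT mean was higher in 10 of the 14 and lower in 4. In 13 of the 14 the groups overlapped.

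The largest difference was at USP44, which acts on histone H2B and in the spindle checkpoint, where a cassette exon had levels of 0.905, 0.333 and 1.000 in WT and 1.000 in each MT library at 11.8 reads. Its difference of 0.254 (-0.207 to 0.715) was 0.047 without WT 2. At USP28 a 78 bp cassette exon (chr11:113854258-113854335) had 0.678, 0.375 and 0.710 in WT and 0.786, 1.000 and 0.635 in MT at 21.5 reads, a difference of 0.219 (-0.113 to 0.552) that was 0.113 without WT 2 and 0.123 without MT 2. The same exon with another upstream exon differed by 0.115 (-0.148 to 0.377), and by 0 without WT 1. A neighbouring 363 bp exon differed by 0.248 (-0.261 to 0.756), and by 0.069 without MT 2. USP54, which has no role group here, had a noncoding cassette exon at 0.862, 0.852 and 1.000 in WT and 0.517, 0.826 and 0.862 in MT, a difference of -0.170 (-0.435 to 0.095) that was -0.061 without MT 1. USP3, which removes ubiquitin from histones H2A and H2B, had an exon at 1.000 in every library but MT 1, where it stood at 0.602, so that the difference of -0.133 was 0 without MT 1. USP8 had 3 cassette events in its noncoding 5′ part, of which 2 concern the same 162 bp exon, with differences of 0.103, 0.116 and 0.121, each on 22.5 to 24.9 reads. The first was 0.053 without MT 3, the second 0.043 without MT 2 and the third 0.031 without MT 1. An exon of USP19 had 0.846, 0.714 and 1.000 in WT and 1.000 in each MT library at 12.8 reads, a difference of 0.147 that was 0.077 without WT 2. MXE pairs of USP20 and USP54 differed by 0.156 (-0.094 to 0.406) and 0.136 (-0.023 to 0.295), and in each pair the groups overlapped. The USP20 difference was 0.077 without WT 2 and 0.090 without MT 2, and the USP54 difference was 0.091 without WT 2.

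**Figure D3:**
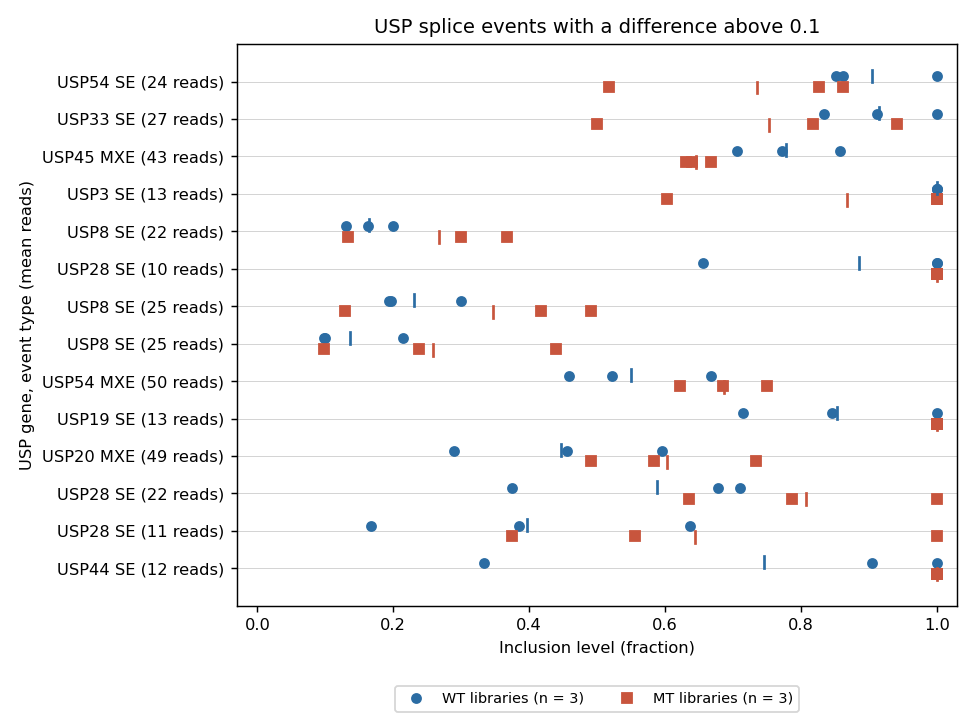
Inclusion level (x axis, fraction) of the 14 USP events with a difference above 0.1, with the mean reads of each. Circles are the 3 WT libraries, squares the 3 MT libraries, ticks the group means, and equal values overlie each other. USP45 is the event whose groups do not overlap.

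**Figure D4:**
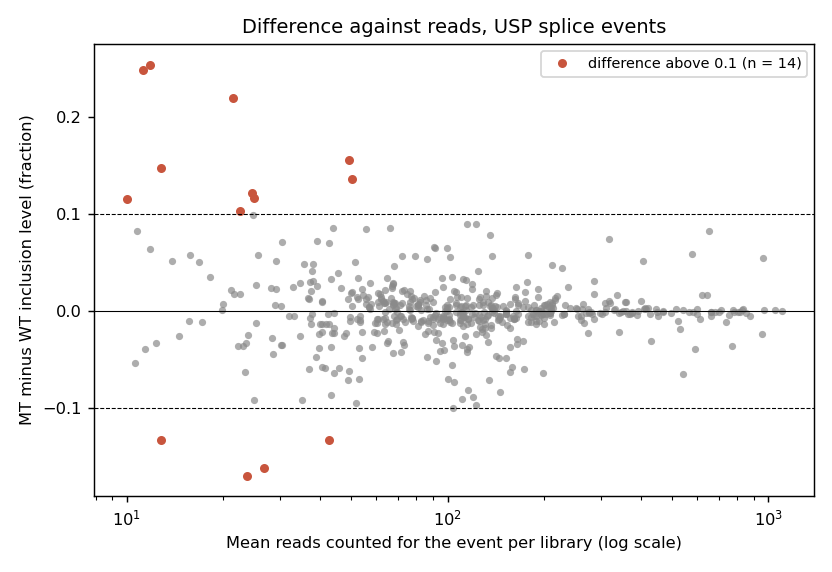
MT minus WT inclusion level (y axis, fraction) against the mean reads counted for the event (x axis, log scale) for the 562 tested USP events. Dashed lines mark a difference of 0.1, and the 14 events beyond them lie at 10 to 50.4 reads.

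The MT levels lay wholly above the WT levels in 10 USP events, 1.78%, against 2.32% of all tested events, and wholly below in 15, 2.67%, against 3.15%. With a difference above 0.1 as well, there was no USP event with MT above, where all events had 0.748%, and 1 with MT below, where all events had 0.977%. That event was an MXE pair of USP45, which acts on the repair nuclease subunit ERCC1. Its level was 0.772, 0.857 and 0.705 in WT against 0.639, 0.667 and 0.630 in MT at 42.8 reads, a difference of -0.133 (-0.236 to -0.030), with a limma p of 0.0953 and a Benjamini-Hochberg adjusted p of 0.856. The difference was -0.093 without WT 2. As with other MXE events described below, annotated transcripts hold both exons of this pair, so the level is not a plain share of either exon. A neighbouring USP45 MXE pair, which shares a flanking exon with it, also separated, with 0.077, 0.097 and 0.099 in WT and 0.050, 0.000 and 0.042 in MT. Without MT 1 the number of separated USP events with a difference above 0.1 was 27, of which 14 lay above and 13 below, which was 4.95% of the USP events against 4.49% of all events.

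The USP genes were grouped by the role of their proteins, and 36 genes had a role group. Of these, 33 had a tested event. The events named below are those of lowest p or most reads of a group, and the event with the most reads among the alternatively spliced ones of a gene. The latter were chosen after their values were seen, as levels of 0.1 to 0.9 outside MXE, and 25 symbols had 1 of 55 such events. Of these 25, the MT mean was higher in 6 and lower in 19, while over all 55 it was higher in 22 and lower in 33, and over all 144 USP events of level 0.1 to 0.9, MXE included, higher in 71 and lower in 73. Events of 1 gene share reads, so these splits carry no test. The interval of the difference included 0 in 24, and the median half-width was 0.132. The added part was a multiple of 3 bases in 15 and coding in 18.

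**Figure D5:**
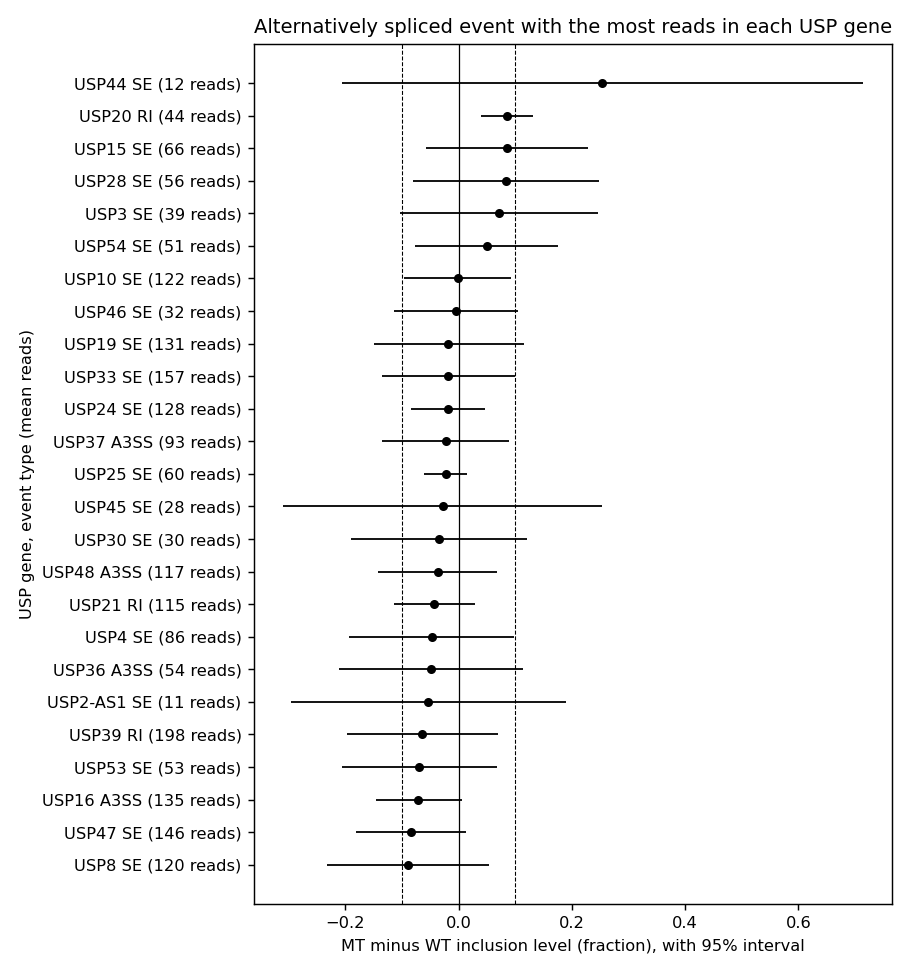
MT minus WT inclusion level (x axis, fraction) with its 95% interval from limma for the most-read alternatively spliced event of each of 25 USP symbols, with the event type and mean reads. The solid line marks no difference and the dashed lines 0.1, and the interval of USP20 lies wholly above 0.

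Chromatin deubiquitinases had 58 events in 7 genes, with 2 at an unadjusted p under 0.05, or 3.45%, where all tested events had 4.47%. USP22, the catalytic subunit of the deubiquitinase module of SAGA, held the USP event with the most reads. This cassette exon, with a mean of 1100 reads, had levels of 0.994, 0.999 and 1.000 in WT against 1.000, 0.995 and 0.998 in MT, a difference of 0.000 (-0.006 to 0.006). A second USP22 exon with 972 reads differed by 0.001 (-0.004 to 0.006), so a shift of 0.01 in these exons lies outside both intervals. USP36 had the lowest p of the group, at a 71 bp coding exon (chr17:78820991-78821061) with 1.000, 0.987 and 1.000 in WT and 0.981, 0.962 and 0.978 in MT. Each MT library lay below each WT library, by a difference of -0.022 (-0.042 to -0.002), with a limma adjusted p (Benjamini-Hochberg) of 0.856. USP21, which acts on histone H2A, retained a noncoding intron at 0.218, 0.177 and 0.253 in WT and 0.189, 0.202 and 0.127 in MT, a difference of -0.043 (-0.114 to 0.028).

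Genes of the DNA damage response and p53 had 139 events in 10 genes. An unadjusted p under 0.05 was found for 8 (5.76%, against 4.47% of all tested events), of which 4 were in USP10 and 3 in USP28. USP10, which acts on p53 and with G3BP1 in stress granules, held the lowest p of all USP events. Its 69 bp coding exon (chr16:84733435-84733503) had levels of 1.000, 1.000 and 0.976 in WT against 0.979, 0.921 and 0.907 in MT, a difference of -0.056 (-0.110 to -0.003) at 103 reads. WT 3 lay just below MT 1, the limma p was 0.00582 and the Benjamini-Hochberg adjusted p 0.76. A USP10 exon of 1041 bp counted against the same skipping junction had WT levels of 1.000, 1.000 and 0.983 and MT levels of 0.972, 0.970 and 0.953 in MT, so the pair is not independent. Toward the 3′ end of USP10, the 145 bp and 66 bp exons went the other way and stood at 1.000 in each MT library, against 0.991, 0.952 and 0.986 and against 0.985, 0.931 and 0.981 in WT. Their differences were 0.024 (-0.005 to 0.052) and 0.034 (-0.006 to 0.075).

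USP1, which deubiquitinates FANCD2 and PCNA, had 12 tested events with differences from -0.065 to 0.017, and USP7, the deubiquitinase of MDM2 and p53, had 14 whose intervals all lay within 0.1 of no difference. USP47, which acts on DNA polymerase beta, had a 204 bp coding exon (chr11:11880177-11880380) at 0.872, 0.825 and 0.926 in WT and 0.841, 0.728 and 0.801 in MT, a difference of -0.084 (-0.182 to 0.013) at 146 reads. The groups overlapped, since MT 1 lay above WT 2. USP28 included a 133 bp coding exon at 0.805, 0.722 and 0.902 in WT and 0.837, 1.000 and 0.844 in MT, a difference of 0.084 (-0.080 to 0.248).

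The spliceosome-linked members USP4, USP15 and USP39 had 49 events. Of these, 0 reached an unadjusted limma p under 0.05, against 4.47% of all tested events, and 0 differed by more than 0.1, against 5.8%. USP4 deubiquitinates PRPF3 with the help of SART3. Its 141 bp coding cassette exon (chr3:49311514-49311654) had levels of 0.717, 0.691 and 0.818 in WT against 0.710, 0.778 and 0.595 in MT, a difference of -0.048 (-0.193 to 0.098). The USP4 exon of lowest p had 1.000, 0.992 and 1.000 in WT and 0.961, 1.000 and 0.989 in MT. USP15, the USP4 paralog that acts on PRPF31, had an 87 bp coding exon (chr12:62349221-62349307) at 0.408, 0.293 and 0.392 in WT and 0.367, 0.551 and 0.430 in MT, a difference of 0.085 (-0.058 to 0.228). Both isoforms were thus present in every library. Its event of lowest p was a noncoding 146 bp exon at 0.072, 0.031 and 0.072 in WT and 0.095, 0.078 and 0.169 in MT, where each MT library lay above each WT library. That difference was 0.056 (-0.015 to 0.126) at 72.1 reads, with a limma adjusted p (Benjamini-Hochberg) of 0.856. The USP39 event of lowest p was an 87 bp exon at 1.000, 0.993 and 0.984 in WT and 1.000 in each MT library, a difference of 0.008 (-0.004 to 0.020) at 310 reads. USP39 retained a noncoding intron at 0.851, 0.785 and 0.970 in WT and 0.762, 0.796 and 0.857 in MT, a difference of -0.064 (-0.197 to 0.070).

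Members of the proteasome and protein quality control group had 117 events in 6 genes, with 3 at an unadjusted p under 0.05 (2.56%, against 4.47% of all events). The lowest p was at a 128 bp coding exon of USP25, which acts in endoplasmic reticulum quality control. It had levels of 1.000, 1.000 and 0.988 in WT against 0.985, 0.977 and 0.909 in MT, a difference of -0.039 (-0.094 to 0.016), and the groups did not overlap. A 96 bp coding exon of USP25 (chr21:15849777-15849872) was included at 0.128, 0.123 and 0.154 in WT and 0.126, 0.091 and 0.118 in MT, a difference of -0.023 (-0.061 to 0.014). The 303 bp coding exon of USP19 (chr3:49117059-49117361) had 0.848, 0.792 and 0.941 in WT and 0.870, 0.761 and 0.897 in MT, a difference of -0.018 (-0.150 to 0.115). USP9X, an X-linked deubiquitinase with many substrates, had 29 tested events. Its most-read cassette exon had 1.000, 0.998 and 0.998 in WT and 1.000, 1.000 and 0.999 in MT at 1050 reads, a difference of 0.001 (-0.002 to 0.004).

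Members at endosomes, membranes and mitochondria had 68 events in 6 genes. Of these, 0 reached an unadjusted limma p under 0.05, against 4.47% of all tested events. A difference above 0.1 was seen in 5 (7.35%, against 5.8% of all tested events). The lowest p was at a 179 bp cassette exon of USP33 with 26.7 reads, at 0.911, 0.833 and 1.000 in WT and 0.941, 0.5 and 0.818 in MT, a difference of -0.162 (-0.471 to 0.147). It was -0.035 without MT 2 and -0.256 without MT 1. The same exon (chr1:77745421-77745599) counted with another upstream exon, at 157 reads, had 0.273, 0.285 and 0.257 in WT and 0.360, 0.198 and 0.203 in MT, a difference of -0.018 (-0.136 to 0.100). The level of this exon thus depended on which flanking exons defined the event. USP20, which acts on beta-adrenergic receptors, retained a noncoding intron (chr9:129880290-129880466) at 0.317, 0.3 and 0.3 in WT and 0.360, 0.416 and 0.397 in MT. Each MT library lay above each WT library, by 0.085 (0.039 to 0.132) at 44 reads. In the separate fit to the transformed levels the limma p was 0.292 and the adjusted p (Benjamini-Hochberg) 0.856, so the 2 fits disagree here. USP8, which acts on endosomal receptors and ESCRT proteins, had an 87 bp coding exon (chr15:50484275-50484361) at 0.685, 0.605 and 0.760 in WT and 0.671, 0.604 and 0.508 in MT, a difference of -0.089 (-0.232 to 0.054). USP30, anchored in the outer mitochondrial membrane where it opposes parkin, had a 110 bp coding exon at 1.000, 0.769 and 0.862 in WT and 0.818, 0.875 and 0.833 in MT, and the groups overlapped.

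USP18, which removes the ubiquitin-like modifier ISG15, was the 1 gene of the immune group, and its 4 tested events had differences from -0.012 to 0.034. The remaining 12 symbols had 127 events, with 9 at an unadjusted p under 0.05 (7.09%, against 4.47% of all events), of which 6 were in USP34. Several of those 6 share an exon. An exon of USP34 was listed with each of its 3 acceptors, as exons of 159, 219 and 635 bp against 1 skipping junction. Each stood at 1.000 in every WT library. In MT the 219 bp form had 0.960, 0.970 and 0.972, the 159 bp form 0.962, 0.971 and 0.974, and the 635 bp form 0.980, 0.985 and 0.985. The skipped form was thus listed in each MT library and in no WT library, at differences of -0.033, -0.031 and -0.017, and the limma adjusted p (Benjamini-Hochberg) was 0.856 for each. The longer form of a noncoding pair of 5′ splice sites of USP37, which acts on cyclin A, had 0.873, 0.944 and 0.925 in WT and 0.976, 0.983 and 0.977 in MT, a difference of 0.065 (0.016 to 0.114) with a limma adjusted p (Benjamini-Hochberg) of 0.856. USP40 included a 40 bp exon in MT at 0.072, 0.023 and 0.058, and in WT at 0.000 in each library. Its adjusted p by limma (Benjamini-Hochberg) was also 0.856. USP54 included a 141 bp coding exon at 0.548, 0.541 and 0.527 in WT and 0.628, 0.660 and 0.477 in MT, where the MT values lay on both sides of the WT values.

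By type, the 562 events were 391 SE (69.6%, against 66.8% of all tested events), 121 MXE (21.5% against 18.3%), 20 A3SS (3.56% against 6.4%), 16 A5SS (2.85% against 4.28%) and 14 RI (2.49% against 4.2%). The 391 SE events stood for 327 distinct exons, since an exon was listed once for each pair of flanking exons. Exon length was a multiple of 3 in 37.6% of them, against 39.2% of all tested SE events, and in 20 of the 38 with a level of 0.1 to 0.9. In GENCODE v44 no transcript skipped the exon in 257 of the 391, and 254 of these had a level above 0.9. Of the other 134, a level above 0.9 was found in 69.

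Most MXE events of USP genes had no annotated counterpart as an either-or choice. For all 121 events, in 30 genes, an annotated transcript held both exons, and in 110 it joined them directly. Annotated transcripts for both listed forms were found for 3, and for neither form for 91. The annotation was read for USP genes only, so these counts have no share over all MXE events. Of the 121 events, 89 (73.6%) had a level of 0.1 to 0.9, against 72.5% of all tested MXE events. The 2 USP9X pairs with the most reads are examples. The first, with 959 reads, had 0.361, 0.663 and 0.591 in WT and 0.455, 0.647 and 0.676 in MT, a difference of 0.054 (-0.196 to 0.305). The second, with 879 reads, had 0.513, 0.495 and 0.534 in WT and 0.514, 0.553 and 0.459 in MT, a difference of -0.005 (-0.070 to 0.059). A USP22 pair with 954 reads had WT levels of 0.503, 0.407 and 0.443 and MT levels of 0.438, 0.408 and 0.434, a difference of -0.024 (-0.089 to 0.040). The USP9X pair with 959 reads spread widely within each genotype, and the other pairs spread less. No MXE event of a USP gene had an unadjusted p under 0.05, against 2.82% of all tested MXE events.

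For comparison, deubiquitinases of other families and partners of USP proteins were taken from a list of 50 symbols, of which 41 had tested events. They had 394 events, and limma called 0, with 21 at an unadjusted p under 0.05 (5.33%, against 4.47% of all events) and 13 with a difference above 0.1 (3.3%, against 5.8%). ATXN3, the Machado-Joseph disease deubiquitinase, had an exon at 0.913, 0.823 and 0.762 in WT and 1.000 in each MT library, a difference of 0.167 at 16.2 reads, with a limma adjusted p (Benjamini-Hochberg) of 0.746. The neighbouring ATXN3 event had 0.891, 0.803 and 0.840 in WT and again 1.000 in each MT library, at 13 reads. Another ATXN3 exon went the other way, at 1.000 in each WT library and 0.971, 0.967 and 0.955 in MT, at 68.2 reads. OTUD3 had an exon at 0.909, 0.909 and 1.000 in WT and 0.813, 0.796 and 0.835 in MT, a difference of -0.125, with an adjusted p of 0.856 by the same test. The largest difference of the list was 0.262 (0.066 to 0.458), at a MYSM1 exon with 17.2 reads and MT wholly above WT. Its limma adjusted p (Benjamini-Hochberg) was 0.856. MT lay wholly above in 3.05% of the 394 events, against 2.32% of all, and wholly below in 2.54%, against 3.15%.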

How the data were processed

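RNA-Seq splice events of 3 WT and 3 MT HEK293T libraries were used. The submitters' processing notes name STAR and StringTie and the build hg38; Methods name the rMATS statistical model. The deposited inclusion levels are a fraction computed by the authors. The table also holds the authors' differences, p-values and FDR, which were not used, and the mean reads of each group, where the MT mean is the authors' mean over 6 listed values. A read minimum of 10 on the mean of both groups was applied. The square root of each level was arcsine-transformed and the groups were compared in R 4.3.3 with limma 3.58.1, with a variance trend on log mean reads and Benjamini-Hochberg adjustment over all tested events. Differences and 95% intervals are on the untransformed level. The fit was tested on simulated shifts larger than any USP difference seen here. Its power for smaller shifts was not tested. All 25 listed USP A3SS pairs read AG and AG, and all 20 A5SS pairs GT and GT, on the hg38 reference. Sequences come from that genome and transcripts from GENCODE v44. MXE levels were read as the form with the exon nearer the 5′ end, the rMATS convention.

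The members and gene lists were chosen with earlier results of these data known. Named events are those called, those separated with a difference above 0.1, the lowest p in each role group, the 5 lowest p among A3SS, the 6 with the most reads, the lowest p in USP4, USP15 and USP39, and the 3 lowest p among other deubiquitinases with a difference above 0.1. Other named events were picked after their values were seen.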

Additional observations from a re-analysis of the deposited data

How the results depend on the processing

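No USP event and no event of the other deubiquitinases was called under any alternative: a logit transform, no transform, no read minimum, a minimum of 20, no variance trend, adjusted p alone, each library left out, and the leading library component as a covariate, which was chosen after seeing the data. Of 546 USP events tested in each case, 13 had an unadjusted limma p under 0.05 without WT 1 and 40 without MT 1. These were the lowest and highest counts. The share over all events was not computed, so the counts cannot be read as particular to USP genes. Over the whole table, 26 calls became 0 with the logit, without a transform or without the trend, 3 to 13 with a library left out, and 49 with the covariate. The single separated USP event with a difference above 0.1 became 0 at a difference above 0.2. With a library left out, 5 to 27 such events were counted, given here with their share of USP events against that of all events. There were 5 without WT 1 (0.916% against 3.18%), 9 without WT 2 (1.69% against 3.67%) and 7 without WT 3 (1.29% against 3.06%). There were 27 without MT 1 (4.95% against 4.49%), 9 without MT 2 (1.73% against 3.29%) and 10 without MT 3 (1.94% against 3.49%). Fewer libraries separate more easily. Of the 23 events named by the rules above, 4 changed sign with a library left out. Their differences then ranged from 0 to 0.002 for the USP22 exon with 972 reads, from -0.034 to 0.123 for the USP9X pair with 959 reads, from -0.046 to 0.002 for the USP22 pair and from -0.028 to 0.02 for the USP9X pair with 879 reads. Events picked after their values were seen changed sign in several cases too. Examples are the USP36 A3SS event (-0.049, but 0.012 without MT 3) and the USP30 exon (-0.035, but 0.026 without WT 1).
No paired analysis was possible because the MT columns could not be matched to numbered MT samples. Among events of 10 to 20 reads, 27.8% of USP events differed by over 0.1, against 24.4% of all events. Whether low depth caused these differences was not tested.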
